A study of Mus musculus with 20 samples.

Results

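The 8 major urinary protein genes examined here were Mup1, Mup3, Mup7, Mup10, Mup11, Mup17, Mup20 and Mup21, each matched by its symbol to 1 Ensembl identifier among the 57010 genes of the deposited count table. The table lists 41 further genes of the family, 14 of them protein-coding and 27 pseudogenes. RNA was taken from 2 organs, liver and kidney, of male mice of the genetically heterogeneous UM-HET3 stock, which were 12 months old at the start of treatment. For 28 days, subcutaneous osmotic minipumps delivered either the 7c cocktail of partial chemical reprogramming or vehicle alone (50% DMSO and 50% PEG300). The cocktail contained repsox, tranylcypromine, DZNep, CHIR99021, forskolin and TTNPB at 0.1 mg/kg/day each, and valproate at 1 mg/kg/day. Mice of both groups carried a pump with the same solvent and were housed singly after surgery. The 7c group gave 6 livers and 6 kidneys, and the vehicle group 4 of each, all listed as biological replicates. The question was whether 7c changed the level of these genes in either tissue, and how the 8 genes differed between mice.

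Major urinary proteins are small lipocalins that hepatocytes secrete into the blood, from where they pass into the urine. In the urine of male mice they bind volatile pheromones and release them slowly, and Mup20, also called darcin, is itself a protein pheromone that attracts females. Their transcription in liver depends on the pulses of growth hormone, which act through STAT5, and on androgens, thyroid hormone and glucocorticoids, so that males express more than females. The genes arose by repeated duplication, and many copies remain nearly identical.

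All 8 genes lie on the minus strand of chromosome 4 (GRCm39), within 2.00 Mb. In order along the chromosome these were Mup7 (ENSMUSG00000073842, chr4:60066445-60070490), Mup1 (ENSMUSG00000078683, chr4:60453986-60458057), Mup10 (ENSMUSG00000078680, chr4:60534259-60538198), Mup11 (ENSMUSG00000073834, chr4:60614440-60618509), Mup17 (ENSMUSG00000096688, chr4:61510140-61514185), Mup3 (ENSMUSG00000066154, chr4:61947447-62005620), Mup20 (ENSMUSG00000078672, chr4:61968464-61972395) and Mup21 (ENSMUSG00000066153, chr4:62066056-62069175). Mup20 lies inside the annotated span of Mup3 on the same strand, but their exons do not overlap. The coding sequences of Mup1, Mup7, Mup10, Mup11 and Mup17 were between 98.5% and 99.3% identical to each other. Mup20 was between 90.5% and 91.4% identical to these, while Mup3 and Mup21 formed a separate pair, 95.7% identical over the 515 positions that aligned. The annotated coding sequence of Mup3 is longer (882 bases) than that of Mup21 (546 bases), and the rest of it was left out of the comparison.

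A stretch of 60 coding bases near the start of the reading frame shows how alike the copies are. It begins at base 55, 58 or 67 of the coding sequence, and capitals mark bases that differ from those shared by most of the 8 genes. Mup7, Mup10, Mup11 and Mup17 had the same 60 bases as Mup1.
Mup1: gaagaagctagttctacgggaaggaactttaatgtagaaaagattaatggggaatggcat
Mup20: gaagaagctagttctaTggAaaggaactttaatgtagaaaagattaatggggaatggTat
Mup3: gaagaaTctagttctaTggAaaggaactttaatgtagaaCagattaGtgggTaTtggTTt
Mup21: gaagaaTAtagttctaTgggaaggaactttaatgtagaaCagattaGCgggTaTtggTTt
Mup20 differed from the shared sequence at 3 of the 60 bases, Mup3 at 9 and Mup21 at 10. A read that lies within this stretch of Mup1 has the same letters as 4 of the other genes examined.

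The share of each transcript that belongs to no other gene was counted over all stretches of 100 bases in the GENCODE transcripts. For Mup3 97.3% of the stretches were found in no other gene, and for Mup21 96.6%. The share was 44.1% for Mup17, 29.7% for Mup20, 25.6% for Mup1, 23.8% for Mup7, 20.2% for Mup11 and 14.6% for Mup10. The 2 genes with their own sequence were thus Mup3 and Mup21, and Mup10 shared 85.4% of its stretches with Mup22. Mup20 shared 70.3% of its stretches with the non-coding gene Gm70526. How reads with several equally good positions were counted is not given in the sources used here, so the counts of the other 6 genes are uncertain.

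**Figure D1:**
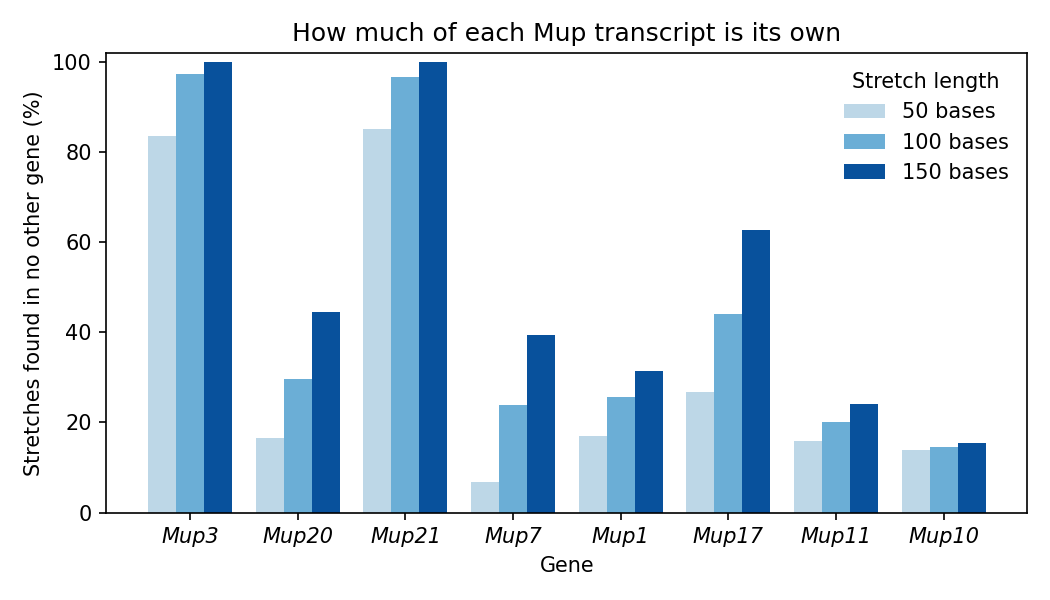
The percentage of stretches of 50, 100 or 150 bases in each transcript that occur in no other annotated gene is plotted for the 8 genes, ordered by their level in liver. At 100 bases, Mup3 and Mup21 stand above 96% and the other 6 genes lie between 14.6% and 44.1%.

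Promoter sequences, from 250 bases before to 50 after the start of each gene, were present in the RefSeq table (GRCm38.p6) for 6 of the 8 genes, all except Mup1 and Mup20. The 100 bases that end in the motif TATATAAGG, in capitals, are shown for the 5 genes that held it. They separate Mup3 and Mup21 from the near-identical copies Mup10, Mup11 and Mup17. Mup7 had a promoter in the table but not this motif.
Mup10 (minus strand, chr4:60582177-60582276): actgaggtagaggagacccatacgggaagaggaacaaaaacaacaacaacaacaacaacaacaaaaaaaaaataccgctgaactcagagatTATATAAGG
Mup11 (minus strand, chr4:60662389-60662488): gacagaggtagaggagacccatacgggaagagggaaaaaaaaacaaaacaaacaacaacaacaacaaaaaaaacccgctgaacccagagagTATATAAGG
Mup17 (minus strand, chr4:61595849-61595948): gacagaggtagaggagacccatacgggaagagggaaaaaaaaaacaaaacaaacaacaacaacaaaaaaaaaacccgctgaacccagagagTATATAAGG
Mup3 (minus strand, chr4:62087320-62087419): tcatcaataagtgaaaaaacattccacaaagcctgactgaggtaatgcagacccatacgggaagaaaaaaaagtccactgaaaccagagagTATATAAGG
Mup21 (minus strand, chr4:62150841-62150940): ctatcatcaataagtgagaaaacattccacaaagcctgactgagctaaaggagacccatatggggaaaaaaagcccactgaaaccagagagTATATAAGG
Between the letters CCCATA and the capitals lie 69 bases in Mup10 and 68 in Mup11 and Mup17, of which 40 or 41 are A. The same interval is 34 bases in Mup3 and 31 in Mup21, with 17 and 14 A. TATATAAGG, chosen after the sequences were read, occurred on either strand in 0.307% of the 32851 promoters of the table. It lay at -30 to -22 from the annotated start in Mup10 but at -2 to 6 in Mup11, so the searched windows are not aligned between genes. The STAT palindrome TTCNNNGAA was found in 0 of the 6 promoters (8.30% of all), and TATAAA in 0 of 6 (13.6% of all). TGTTCT, the half-site of the androgen and glucocorticoid receptors, was found in Mup3 and Mup21 (2 of 6, against 19.0% of all promoters). The matches of different motifs in these promoters did not overlap, and a match of letters within 300 bases does not show binding.

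Total counts ranged from 28383359 to 34153084 in the 10 livers and from 27855849 to 64872451 in the 10 kidneys. The liver totals did not overlap between groups, with at most 30571119 in 7c and at least 31670440 in vehicle. All 12 hepatocyte markers examined had counts in every liver, and the 10 kidney markers together reached at most 1.76 CPM in any liver (CPM, counts per 1000000 of the library size scaled by edgeR's TMM method). The same kidney markers summed to between 38443 and 74392 CPM in the kidneys, so the tissue labels matched the libraries. One liver stood apart, 7c replicate 6, in which 5 skeletal muscle markers, among them Acta1, Myh4 and Tnnt3, summed to 606 CPM against at most 1.79 in the other livers. In RNA from whole tissue, fewer cells of a type and less RNA per cell cannot be told apart.

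The 8 genes were abundant in liver, where they took between 1.00% and 1.62% of all counts of a library, and Mup3 made up most of that. Mup3 supplied between 73.4% and 88.7% of the counts of the 8 genes in a liver. Summed over the 8 genes, the level in the 6 7c livers ranged from 10137 to 13985 CPM with a median of 10540. In the 4 vehicle livers the sum was 11399.5, 12978, 11488 and 15587 CPM. The 2 groups overlapped, with means of 11344 ± 1550 (SD, n = 6) and 12863 ± 1955 CPM (SD, n = 4).

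Levels of different genes were compared per kilobase (kb) of transcript. Over the 10 livers, the level in CPM per kb was 8979 ± 1030 (SD, n = 10) for Mup3, the highest of the 8. It was 1430 ± 752 for Mup20, the gene of darcin, and 484 ± 237 for Mup21. Mup7 followed with 319 ± 159 CPM per kb. Its place depends on the length used, 1781 bases against 865 for Mup21. In CPM without length, Mup7 was higher than Mup21 (568 against 419). The remaining 4 genes were lower by a further step. Mup1 had 67.8 ± 29.6 CPM per kb, Mup17 59.99 ± 47.8, Mup11 46.1 ± 41.2 and Mup10 34.3 ± 7.11. Mup3 was above Mup20, and Mup7 above Mup1, in 10 of 10 livers, and in both cases the ranges of mean ± SD did not overlap. All other neighbours in this order overlapped within 1 SD and kept the order in 6 to 8 of the 10 livers. Because Mup3 and Mup21 differ from the other 6 genes in how much of their sequence is their own, these levels are those of the assigned reads.

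**Figure D2:**
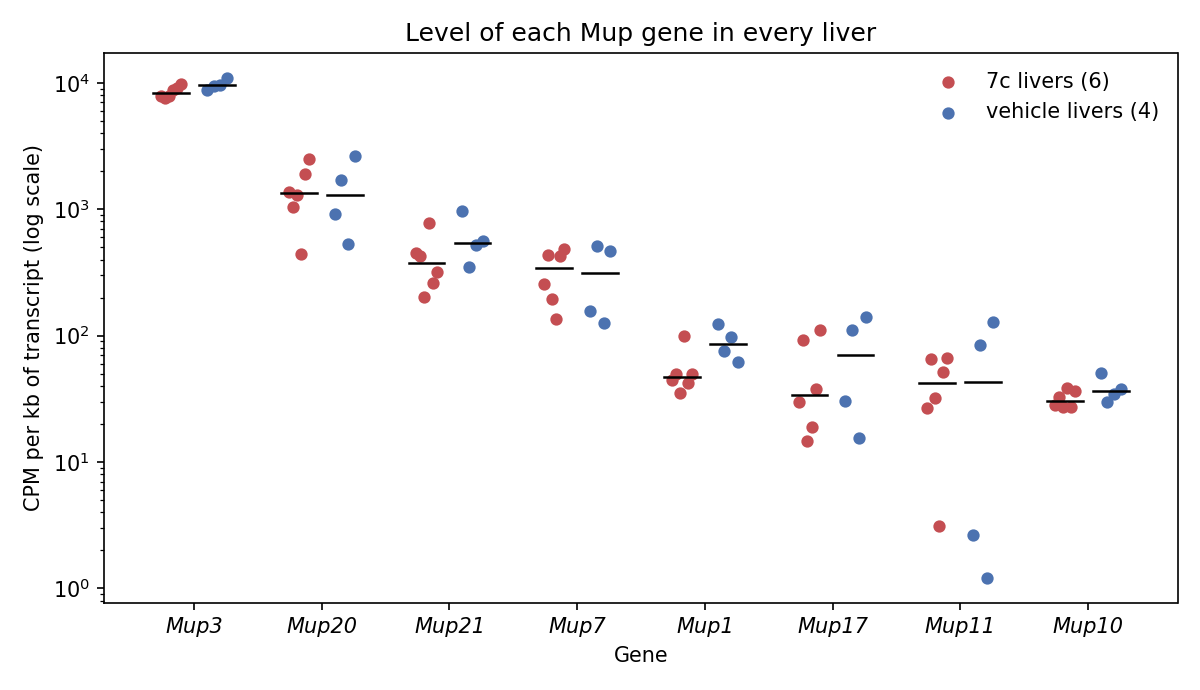
Level of each of the 8 genes in CPM per kb of transcript (log scale) in every liver, with 6 7c livers in red, 4 vehicle livers in blue and the median of each group as a black line. Mup3 is the highest gene in every liver, the groups overlap for all 8 genes, and 3 livers have far less Mup11 than the other 7.

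None of the 8 genes passed the threshold between 7c and vehicle livers (edgeR's quasi-likelihood test with Benjamini-Hochberg adjustment over 15012 genes, 0.05), a comparison in which 0.00666% of all genes tested were called. The adjusted p was 0.9996 for each of the 8. Log2 fold changes were below 0 for 7 of the 8 genes, with a median of -0.34. Of all genes tested, 49.6% were below 0 and their median was 0.00. The 7 include Mup20, which was close to 0, and near-identical copies can share reads, so the 8 genes are not independent. DESeq2, limma-voom and edgeR's likelihood ratio test called 0 of the 8 as well, and so did the fit without 7c replicate 6, the liver with muscle transcripts. At an unadjusted p under 0.05 there was 1 gene, Mup1, against 3.76% of all genes tested. The groups overlapped for all 8 genes, as for most others, since only 0.719% of the genes tested had groups that did not overlap.

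Mup1 had between 31.7 and 88.9 CPM in the 6 7c livers, with a median of 42.1. The 4 vehicle livers had 110, 67.5, 86.5 and 55.0 CPM. In 5 of the 6 7c livers Mup1 was below the lowest vehicle liver, and the remaining one, replicate 4, was above 3 of the 4 vehicle livers. The log2 fold change of Mup1 was -0.74 ± 0.26 (SE).

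Mup3, the most abundant member, varied least. Its level in the 7c livers ranged from 8024 to 10269 CPM with a median of 8731, and the vehicle livers had 9247, 9901, 10188 and 11476 CPM. In 4 of 6 7c livers it was below all vehicle livers, and the log2 fold change was -0.19 ± 0.10 (SE). From the lowest to the highest of the 10 livers Mup3 differed 1.43-fold, which is less than the median of 1.88-fold over all genes tested.

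For Mup21, the relative of Mup3, the 7c livers ranged from 174 to 672 CPM with a median of 324. The vehicle livers had 838, 302, 450 and 487 CPM. The groups overlapped, with a log2 fold change of -0.56 ± 0.34 (SE), which was -0.23 without vehicle replicate 1 and -0.85 without 7c replicate 4. For Mup10 the 7c livers ranged from 25.3 to 35.5 CPM (median 28.2) and the vehicle livers had 47.0, 27.9, 32.2 and 35.1. The log2 fold change of Mup10 was -0.27 ± 0.15 (SE), and -0.11 without vehicle replicate 1.

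For Mup20 the log2 fold change was close to 0. Its level ranged from 410 to 2325 CPM in the 7c livers (median 1239.5), and the vehicle livers had 848, 1578, 490 and 2426 CPM. The log2 fold change was -0.01 ± 0.44 (SE). Mup7 was alike in this respect. The 7c livers ranged from 240 to 856 CPM (median 608) and the vehicle livers had 277, 905, 224 and 836, with a log2 fold change of 0.03 ± 0.42 (SE). In both genes the vehicle livers alone spanned nearly the whole range of the 7c livers. Leaving out each replicate in turn gave log2 fold changes from -0.29 to 0.44 for Mup20 and from -0.23 to 0.37 for Mup7, so neither direction was stable.

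Mup17 and Mup11 varied most. Mup17 ranged from 14.7 to 111 CPM in the 7c livers (median 33.8), and the vehicle livers had 30.4, 111, 15.5 and 140 CPM. The log2 fold change of Mup17 was -0.55 ± 0.63 (SE), and it was -0.038 without vehicle replicate 4 and -0.93 without 7c replicate 6. Mup11 ranged from 3.22 to 68.1 CPM in the 7c livers (median 43.1), and the vehicle livers had 2.704, 86.1, 1.25 and 132 CPM. Its log2 fold change was -0.40 ± 0.96 (SE), and the direction turned with limma-voom (1.04), with the replicate number as a block (0.99) and without vehicle replicate 4 (0.48).

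**Figure D3:**
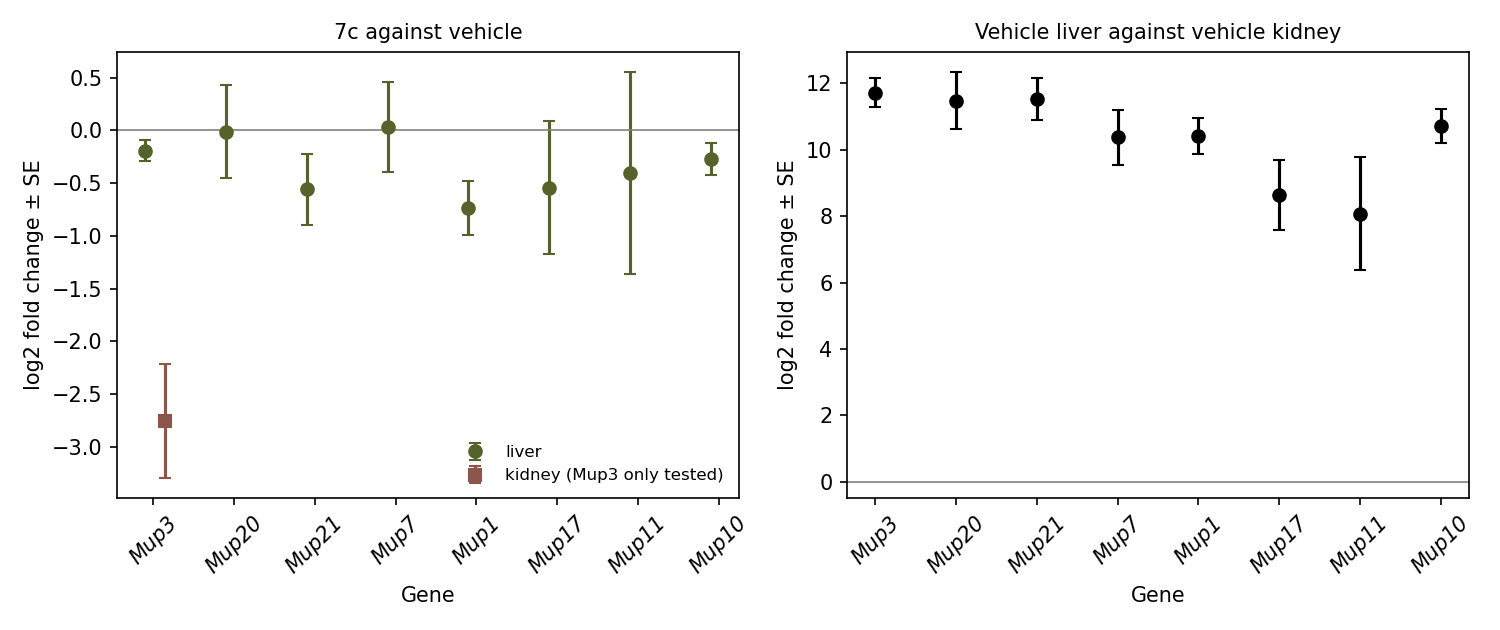
Log2 fold change ± SE of the 8 genes for 7c against vehicle (left; liver as circles, kidney as a square for Mup3, the gene tested there) and for vehicle liver against vehicle kidney (right). On the left the liver values lie between -0.74 and 0.03 and Mup3 in kidney at -2.76. On the right all 8 lie between 8.07 and 11.72.

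The lowest values of Mup11 were those of 3 livers. In counts, Mup11 had 95 in 7c replicate 4, 82 in vehicle replicate 1 and 44 in vehicle replicate 3, while the other 7 livers had between 833 and 4500. The 4th lowest liver was 8.48-fold above the 3rd lowest in CPM, and the highest was 105-fold above the lowest. Of all genes tested in liver with a value in every library, 99.9% differed less between the lowest and the highest liver. The 3 livers come from both treatment groups.

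The same 3 livers were the lowest for other genes of the family. They were the 3 lowest for Mup7 and Mup20 among the 8, although in these genes the gap to the 4th lowest liver was small (1.26-fold in Mup7 and 1.13-fold in Mup20). Among the 26 other Mup genes tested in liver they were the 3 lowest for Mup14, Mup16, Mup-ps7, Mup-ps16, Mup-ps17 and Mup-ps19. Mup14 had 107, 98 and 90 counts in these 3 livers and between 747 and 2391 in the other 7. For Mup16 the 3 livers had 45, 112 and 40 counts and the other 7 between 235 and 1084. In all, these 3 livers were the lowest for 9 of the 34 Mup genes tested (26.5%), against 0.773% of all genes tested in liver. The set of 3 livers was chosen from the values of Mup11, which is itself among the 9, so these shares are a description. Near-identical copies can also share reads, so the Mup genes counted here are not independent of each other.

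Of the 8 genes, 1 had these livers at the other end. They were the 3 highest for Mup1, with 2624, 3349 and 3044 counts against between 955 and 2357 in the other 7. Outside the 8, they were the 3 highest for Mup2 and Mup12. Mup12 had 2512, 2896 and 2841 counts in these livers and between 692 and 1539 in the others. The share of genes with these livers highest was 8.82% of the Mup genes tested (3 of 34), against 0.726% of all genes tested. Mup1 shared 68.5% of its stretches of 100 bases with Mup12, so these genes are not independent. For Mup21 and Mup10 the highest livers were vehicle replicate 1 and then 7c replicate 4, while vehicle replicate 3 lay among the others. Mup3 did not separate these livers from the rest.

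Over the 10 livers, on the log2 CPM scale (pseudocount 0.5), Mup11 correlated with Mup7 at r = 0.94, with Mup20 at 0.87 and with Mup17 at 0.76. Mup1 correlated with Mup21 at 0.85 and with Mup10 at 0.79, and with Mup11 at -0.71. Mup3 stayed between 0.10 and 0.41 with the other 7. These coefficients describe 10 libraries that include the 3 livers above, and near-identical copies can share reads, so the points of such pairs are not independent.

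**Figure D4:**
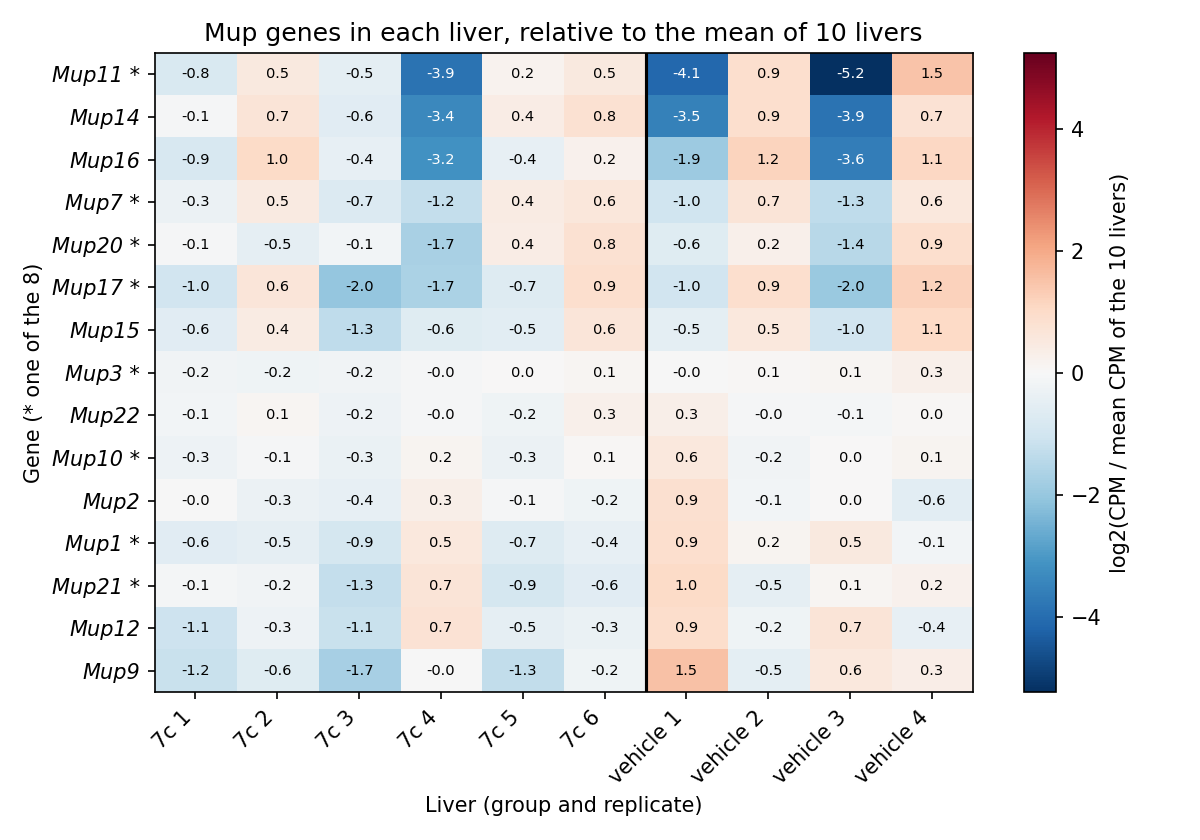
Log2 of CPM relative to the mean of the 10 livers for the 15 protein-coding Mup genes with a mean of at least 10 CPM in liver (rows, the 8 genes with an asterisk) in each liver (columns, 7c left of the line). The columns of 7c replicate 4 and vehicle replicates 1 and 3 are blue for Mup11, Mup14 and Mup16 and pale or red for Mup1 and Mup12, while the rows of Mup3 and Mup22 are nearly even.

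The remaining Mup genes gave no call between 7c and vehicle livers either. Of the 26 tested, 13 were protein-coding and 13 pseudogenes. Of the 26, 18 had log2 fold changes below 0 with a median of -0.24, against 49.6% of all genes tested. The largest negative value was that of Mup9, at -1.38 ± 0.37 (SE) and it was the 1 of the 26 with an unadjusted p under 0.05. Mup9 had between 493 and 1601 counts in the 7c livers and 4779, 1325, 2845 and 2350 in the vehicle livers. The largest positive value was 1.18 ± 0.58 (SE) for Mup-ps21, with few counts. Mup-ps21 had between 9 and 12 counts in the 7c livers and 1, 6, 7 and 7 in the vehicle livers, so that it passed the filter on low counts only through the 7c group. The protein-coding genes Mup2, Mup12, Mup14, Mup15, Mup16 and Mup22 lay between -0.63 (Mup12) and 0.20 (Mup14). Mup5, Mup6, Mup8, Mup13, Mup18 and Mup19 had averages below 5 CPM and log2 fold changes between -0.40 (Mup5) and 0.04 (Mup19). The remaining pseudogenes ranged from -1.02 (Mup-ps1) to 0.81 (Mup-ps16), with Mup-ps2, Mup-ps4, Mup-ps6, Mup-ps7, Mup-ps10, Mup-ps12, Mup-ps13, Mup-ps14, Mup-ps17 and Mup-ps19 in between. Mup4 was the protein-coding gene of the family that did not reach 10 counts in enough livers.

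The regulators of the Mup genes were looked at beside them. Of the 11 growth hormone signalling genes tested in liver, 0 passed the threshold, 6 were below 0 and the median log2 fold change was -0.03. Of all genes tested in liver 0.00666% passed and 49.6% were below 0, so 0 calls in this and the following lists say little. Ghr, the receptor, had 583 ± 41.6 CPM (SD, n = 6) in 7c and 617 ± 50.4 CPM (SD, n = 4) in vehicle livers. Igf1, the main hepatic product of the signal, had 537 ± 49.4 and 532 ± 80.5 CPM. Igfals, which carries IGF1 in blood, had 124 ± 18.5 and 111 ± 16.9 CPM, and Stat5b, the transcription factor of the pathway, 72.8 ± 7.92 and 78.9 ± 12.2 CPM. These 4 genes differed by less than the spread between mice. Cish, a feedback inhibitor induced by STAT5 and chosen after its value was seen, was the 1 gene of the list with an unadjusted p under 0.05, with a log2 fold change of 1.87 (SE 0.81).

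Of 12 hepatic transcription factors, receptors and the repressor Zhx2, 0 passed and the median log2 fold change was 0.11. Cebpb, named after its value was seen, had the 1 unadjusted p under 0.05, with a log2 fold change of 0.68. Hnf4a had 571 ± 86.6 CPM in 7c and 604 ± 103 in vehicle livers, and Cebpa 352 ± 66.7 and 359 ± 62.1. The glucocorticoid receptor Nr3c1 had 62.7 ± 2.59 and 58.0 ± 5.54 CPM, and Foxa3 37.9 ± 9.12 and 35.3 ± 15.7. Of 13 other genes known to be higher in male liver, 0 passed, 9 were below 0 and the median was -0.08. Serpina1e, a serpin, spanned from 37.9 to 9537 CPM in 7c and from 31.1 to 11088 in vehicle livers. Gstp1 and Cyp2d9, which act on xenobiotics, and the selenium-binding protein gene Selenbp2 had log2 fold changes of -0.35, 0.06 and -0.02. Of all genes tested in liver, 49.6% were below 0. Of the female-biased list 11 of 16 genes were tested, 0 passed and 10 were above 0, with a median of 0.25. The 4 most abundant of these, Fmo2, Abcd2, Cyp2a4 and Cyp2b9, had at most 33.7 CPM in any liver and log2 fold changes between 0.01 and 0.74.

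Of 9 other lipocalins tested in liver, 0 passed and the median log2 fold change was 0.06. Lcn2 and Orm2, acute phase proteins named after their values were seen, had log2 fold changes of 1.07 and 0.52 and an unadjusted p under 0.05. Rbp4, the carrier of retinol, had 3303 ± 412 CPM in 7c and 3139 ± 167 in vehicle livers. Ambp, Orm1 and C8g had log2 fold changes between 0.03 and 0.07. The hepatocyte markers gave 0 calls of 12 with a median of 0.02, and their summed level ranged from 104964 to 135453 CPM in 7c and from 103336 to 127387 in vehicle livers. The most abundant of these, Alb, Serpina3k and Apoa2, had log2 fold changes of 0.20, -0.09 and 0.19.

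Genes that flank the cluster gave a further description. Within 1 Mb of the outermost Mup genes on chromosome 4 lie 29 other protein-coding genes, of which 23 were tested in liver and 0 passed the threshold. Of all genes tested in liver, 0.00666% passed. The 3 livers with the lowest Mup11 were the 3 lowest for 0 of these 23 genes and the 3 highest for 3 of them (13%, against 0.726% of all genes tested). These were Alad, which makes porphobilinogen in heme synthesis, Hdhd3 and Pole3, neighbours at chr4:62416018-62443632, named after their values were seen. Alad had 342 CPM in 7c replicate 4, 281 in vehicle replicate 1 and 361 in vehicle replicate 3, against between 178 and 262 CPM in the other 7 livers. Hdhd3 had 63.5, 57.6 and 77.0 CPM in the same livers and between 26.1 and 53.3 in the others. For Pole3 the difference was small, with 21.0, 23.1 and 21.7 CPM against at most 20.5. In kidney the 3 highest for Alad and Hdhd3 were 7c replicates 4 and 5 and vehicle replicate 2. Kidney Alad was 319 CPM in 7c replicate 4, 189 in vehicle replicate 1 and 212 in vehicle replicate 3, against 294 in vehicle replicate 2. Whether a liver and a kidney of the same number share a mouse is not given.

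In kidney the 8 genes had few counts. Their counts summed to between 10 and 152 in the 7c kidneys and to 271, 447, 139 and 137 in the vehicle kidneys. In CPM the sum had a median of 0.598 in 7c (range 0.313 to 3.65), and the vehicle kidneys had 7.09, 12.4, 3.72 and 4.78. All 4 vehicle kidneys were above all 6 7c kidneys in this sum, though 7c replicate 6 came within 0.1 CPM of the lowest. Mup3 was the 1 gene of the 8 with at least 10 counts in 50% of the kidneys, and so the 1 tested. None of the 41 other Mup genes reached this level in kidney.

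Mup3 had 22, 8, 26, 20, 10 and 83 counts in the 7c kidneys and 225, 252, 112 and 77 in the vehicle kidneys. In CPM this was between 0.240 and 1.99 with a median of 0.426 in 7c, and 5.88, 7.02, 3.00 and 2.69 in vehicle. Every 7c kidney was below every vehicle kidney, which held for 0.406% of the 17749 genes tested. The log2 fold change of Mup3 was -2.76 ± 0.54 (SE), with an adjusted p of 0.591 by edgeR's quasi-likelihood test, which called 0% of the genes in this comparison. The decision depended on the test. Mup3 passed the threshold with DESeq2 (adjusted p = 0.000719), which called 0.101% of genes, and with edgeR's likelihood ratio test (adjusted p = 0.00174), which called 0.0789%. It also passed when all 20 libraries shared 1 fit (adjusted p = 0.00238, quasi-likelihood test, 0.101% called) and without 7c replicate 6 (adjusted p = 0.0432, 0.00573% called). With limma-voom it did not pass (adjusted p = 0.173), nor with the remaining alternatives, nor when any other replicate was left out. Without 7c replicate 6, the kidney with the most Mup3 and the most Alb (30.7 CPM) of its group, the log2 fold change was -3.46.

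The other 7 genes had few reads in kidney. Mup20 had 8, 4, 0, 0, 0 and 15 counts in the 7c kidneys and 16, 65, 8 and 12 in the vehicle kidneys. Mup7 had 3, 2, 0, 3, 0 and 19 counts in 7c, and 13, 56, 7 and 15 in vehicle. In both genes 5 of the 6 7c kidneys were below the lowest vehicle kidney in CPM, and 7c replicate 6 was not. Mup21 was at 0 counts in 5 of the 6 7c kidneys and at 18 in the remaining one, replicate 6, and had 12, 0, 12 and 13 in vehicle. Mup1, Mup10, Mup11 and Mup17 had at most 10 counts in any 7c kidney. In the vehicle kidneys these 4 reached at most 42 counts (Mup11 in replicate 2).

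Most hepatocyte markers had log2 fold changes below 0 in kidney, as Mup3 had, though no marker was called. Of 12 hepatocyte markers, all tested in kidney, 11 had log2 fold changes below 0, with a median of -1.14, 0 passed the quasi-likelihood test and 6 had an unadjusted p under 0.05. Over all 17749 genes tested in kidney this test called 0%, 51.0% were below 0 and 2.61% had an unadjusted p under 0.05. Alb ranged from 8.69 to 30.7 CPM in 7c (median 12.7) and from 22.8 to 44.0 in vehicle kidneys (median 35.4), with a log2 fold change of -1.08 ± 0.32 (SE). Cps1, a urea cycle enzyme, was the 1 marker of the 12 whose groups did not overlap, with at most 0.336 CPM in 7c and at least 0.501 in vehicle kidneys. Every 7c kidney was below every vehicle kidney for 0.406% of all genes tested. Cps1 was near the limit of detection, with a median of 0.091 CPM in 7c. Serpina3k had a log2 fold change of -2.58 ± 0.61 (SE). The summed level of the 12 markers overlapped between the groups (from 139 to 373 CPM in 7c, from 259 to 385 in vehicle) and was mostly Ttr, Apoh and Fga, which had log2 fold changes of -0.08, 0.28 and -0.03. Relative to Alb, Mup3 had between 20.4 and 64.8 counts per 1000 Alb counts in the 7c kidneys and between 91.7 and 184 in the vehicle kidneys. Other ratios overlapped. Per 1000 counts of the 12 markers together, Mup3 had at most 9.51 in 7c and at least 9.31 in vehicle kidneys, and the 8 genes together per 1000 Alb counts had at most 119 in 7c and at least 114 in vehicle kidneys. In livers Mup3 per 1000 Alb counts was between 132 and 157 in 7c and between 141 and 212 in vehicle. The part of hepatocyte RNA in the kidney values of Mup3 was not tested.

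**Figure D5:**
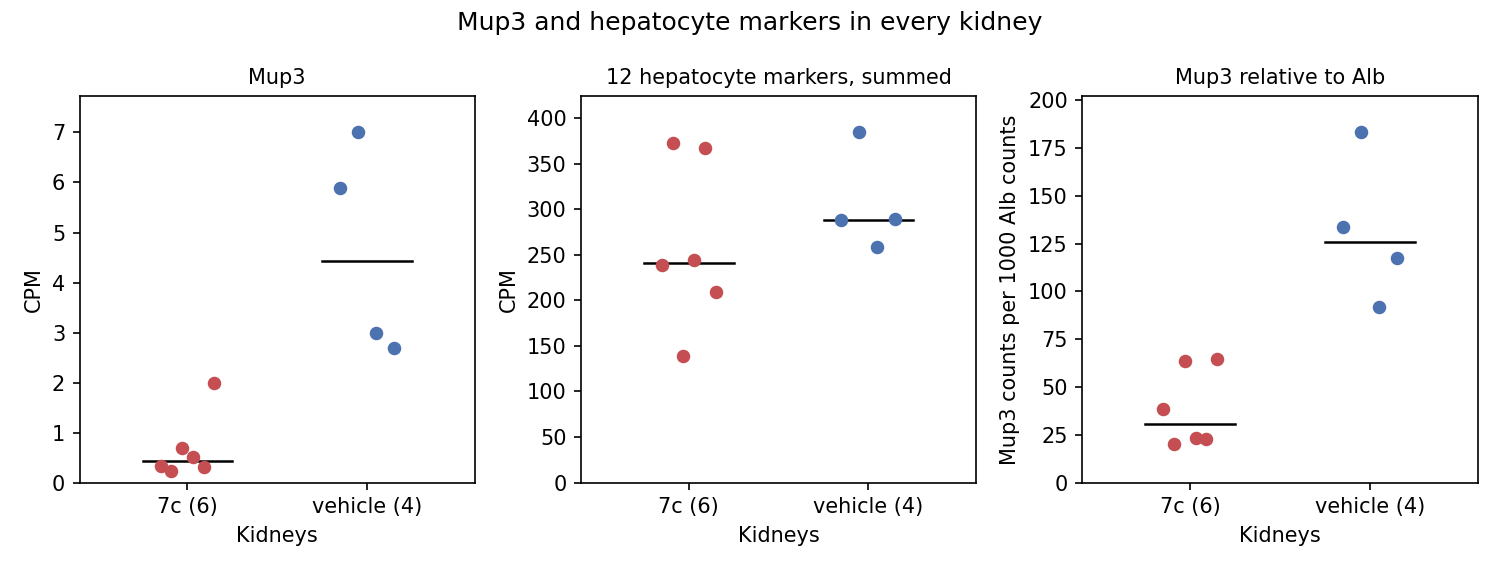
Mup3 in CPM (left), the summed CPM of 12 hepatocyte markers (middle) and Mup3 counts per 1000 Alb counts (right) in every kidney, with the 6 7c kidneys in red, the 4 vehicle kidneys in blue and group medians as black lines. The groups do not overlap for Mup3 (at most 1.99 against at least 2.69 CPM) or for its ratio to Alb (at most 64.8 against at least 91.7), and overlap for the marker sum.

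The adipocyte markers had a higher summed level in the 7c kidneys, though no marker was called. All 6 had log2 fold changes above 0 with a median of 2.13, 0 passed the quasi-likelihood test and 6 had an unadjusted p under 0.05, against the 2.61% of all genes given above. Fabp4, Cidec and Adipoq had log2 fold changes of 0.77, 2.55 and 2.07. Their summed level was between 57.3 and 149 CPM in 7c and between 37.1 and 49.5 in vehicle kidneys. The kidney markers had a median log2 fold change of 0.01 and 0 of 10 passed, with Kap, Slc34a1 and Umod at 0.10, 0.0063 and 0.021. The 5 blood cell markers had log2 fold changes between 0.77 and 0.94, with Alas2 at 0.84, Hbb-bs at 0.80 and Hba-a1 at 0.94. Their part in the difference of Mup3 was not tested.

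The difference of Mup3 between 7c and vehicle kidneys was set against that in liver in 1 model over all 20 libraries. The interaction of treatment and tissue was 2.56 ± 0.53 (SE) on the log2 scale for Mup3, which had the lower value in kidney. Its adjusted p was 0.190 by the quasi-likelihood test, which called 0.00706% of 14163 genes. Mup3 passed with the likelihood ratio test (adjusted p = 0.00400, 0.155% of genes called), without a filter on low counts (adjusted p = 0.0288, 0.0323% called) and without 7c replicate 6 (adjusted p = 0.00117, 0.043% called). DESeq2 gave 0.113 and limma-voom 0.0571. A difference between the tissues in the effect of 7c on Mup3 was thus called by some tests and not by others.

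Between the 4 vehicle livers and the 4 vehicle kidneys, all 8 genes were higher in liver and passed the threshold (quasi-likelihood test, 17245 genes), where 25.7% of all genes tested were called higher in liver. The log2 fold change of Mup3 was 11.72 ± 0.45 (SE, adjusted p = 4.67e-09). Mup21 and Mup20 had 11.53 ± 0.63 and 11.48 ± 0.87 (SE), within 1 SE of Mup3. Mup10, Mup1 and Mup7 lay between 10.37 and 10.71. Mup17 (8.64 ± 1.05, SE) and Mup11 (8.07 ± 1.71, SE, adjusted p = 0.00202) had lower values, and Mup11 did not pass with limma-voom (adjusted p = 0.264). All of these genes would have passed the filter through the livers alone, so that a gene near 0 in kidney could only be higher in liver, and their number is no result of its own. The same holds for the 18 other Mup genes tested, all called higher in liver, of which 8 had 0 counts in every vehicle kidney. Kidney values of Mup10 rest on 4 counts in all 4 vehicle kidneys together and those of Mup1 on 12. Without vehicle replicate 2 the log2 fold change was 11.44 for Mup11, 11.85 for Mup1 and 12.35 for Mup20, and without vehicle replicate 4 it was 6.94 for Mup11 and 10.87 for Mup20. Without vehicle replicate 1 the kidneys had 0 counts of Mup10, so that its fitted fold change is no measure of size there.

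The 5 genes outside the family, of 7766 with at least 10 CPM in liver, whose log2 CPM followed the summed level of the 8 genes most closely over the 10 livers were Ppp1cc (r = 0.90), Kars1 (0.89), Gosr1 (0.86), Katna1 (0.85) and Nbeal1 (0.85). Without the 2 livers farthest from the median, r was between 0.65 and 0.88. Both values of a point share 1 library and its scaling, and these coefficients are a description of likeness.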

How the data were processed

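The authors made stranded polyadenylated RNA libraries, aligned the reads to GRCm39 with STAR 2.7.11b and counted them with featureCounts 2.0.6. The deposited values are raw counts per gene. The annotation release, read length and treatment of multimapping reads are not given in the sources used here. Symbols, positions and canonical transcripts came from GENCODE vM39, which matched 56310 genes, and promoters from RefSeq.

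Genes with at least 10 counts in 50% of a tissue's libraries were tested with edgeR 4.0.16 (TMM, quasi-likelihood F-test, threshold 0.05, R 4.3.3). The interaction used genes that passed in both tissues. CPM of all genes used the same scaling, and intergene comparisons used transcript length. Replicates are separate mice. Alternatives were RLE factors, DESeq2 1.42.0, limma-voom (limma 3.58.1), the likelihood ratio test, no filter, filterByExpr, library sizes without Mup genes, a replicate block, 1 fit of 20 libraries, and leaving out each replicate.

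The genes and lists were chosen with earlier results of these data known. The text names all 8 genes, other Mup genes past the filter, the 4 most abundant genes of each list (3 for markers), genes of any list past the threshold (there were none) and the 5 genes nearest in pattern. Cish, Cebpb, Lcn2, Orm2, Alad, Hdhd3, Pole3, Cps1, Ttr, Apoh and Fga fall outside this rule and were chosen after their values were seen. The tests were checked on simulated counts with 200 changed genes. Depth limits genes with few counts, and intervals were not computed for them.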

Additional observations from a re-analysis of the deposited data

Results flagged for a closer look

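In 36 groups (the 8 genes and their sum in 4 groups of samples), 12 samples lay far from the rest of their group by Dixon's test at the 95% level on CPM. Chance gives about 1 in 20 groups, but this rate does not hold for groups of few counts, and in 4 of the 12 the rest of the group was at 0, so that any count stands apart.

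The kidney of 7c replicate 6 accounted for 7 of these. Among the 7c kidneys it also had the most Alb (30.7 CPM). It had 1.99 CPM of Mup3 (83 counts) where the next 7c kidney had 0.695, and 3.65 CPM of the 8 genes together where the next had 0.695. Mup7 was at 0.456 CPM (19 counts), Mup20 at 0.360 CPM (15 counts) and Mup21 at 0.432 CPM (18 counts, with 0 in the other 7c kidneys). Mup1 was at 0.120 CPM (5 counts) and Mup10 at 0.0480 CPM (2 counts).

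The kidney of vehicle replicate 2 had 1.17 CPM of Mup11 (42 counts) and 1.81 CPM of Mup20 (65 counts), above the other vehicle kidneys, which had at most 0.0698 and 0.419 CPM. The kidney of vehicle replicate 1 had 0.105 CPM of Mup10 (4 counts) where the other 3 had 0, and that of 7c replicate 1 had 0.0151 CPM of Mup11, which is 1 count. In liver, 7c replicate 4 had 88.9 CPM of Mup1, where the other 7c livers had between 31.7 and 44.8 CPM.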

How the results depend on the processing

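No alternative called any of the 8 genes between 7c and vehicle livers. The log2 fold changes of 3 genes turned sign: Mup11 (-0.40) to 1.04 with limma-voom and 0.99 with the replicate block, Mup20 to 0.050 with limma-voom, and Mup7 to -0.14 with the replicate block. Leaving out each replicate in turn gave -0.81 to 0.48 for Mup11, -0.29 to 0.44 for Mup20 and -0.23 to 0.37 for Mup7. The sign turned without vehicle replicate 4 for Mup11, without 7c replicate 2, 3 or 4 or vehicle replicate 2 or 4 for Mup20, and without 7c replicate 2, 5 or 6 or vehicle replicate 1 or 3 for Mup7. The other 5 stayed below 0, with -0.93 to -0.038 for Mup17, -0.85 to -0.23 for Mup21, -1.01 to -0.54 for Mup1, -0.37 to -0.11 for Mup10 and -0.24 to -0.13 for Mup3. In kidney the count of called genes, 0 as reported, was 1 (Mup3) with DESeq2, the likelihood ratio test and 1 fit of all 20 libraries, and 0 to 1 when replicates were left out, the 1 being without 7c replicate 6. For the interaction it was 1 with the likelihood ratio test and without a filter, and 0 to 1 when replicates were left out, again without 7c replicate 6. The cause was not tested. Vehicle liver and kidney differed in all 8 genes under each alternative except limma-voom, which lost Mup11. Mean summed levels moved by less than 1 SD with RLE or no scaling factors. The labels do not say whether a liver and a kidney with the same number came from 1 mouse. Their deviations correlated at 0.013 to 0.26, with 7 of 10 pairs over 0.1, and 8 of 10 livers were closest to the kidney of their own number within their treatment, a hint from the data that they share a mouse, which the values reported over both tissues do not take into account. With the replicate block, which over both tissues joins the liver and kidney of 1 treatment and number, 0 of the 8 genes were called in liver, 0 in kidney and 0 for the interaction (Mup3 2.73, adjusted p = 0.554 by edgeR's quasi-likelihood test), and 8 between vehicle liver and kidney. Depth limits the kidney values, where 7 of the 8 genes were not tested.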
